A study of Mus musculus with 12 samples.

Results

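Lap2 depletion in serum-starved fibroblasts was examined in 6 of the 12 RNA-seq libraries of the study, chosen by their labels as all libraries from cells in 0.3% FBS. NIH 3T3, a fibroblast line derived from mouse embryos that grows without limit, was transfected with control siRNA (a commercial negative control) or with Lap2 siRNA, which targets the nucleoplasmic and the membrane-anchored isoforms alike, and was starved overnight in 0.3% FBS. Each siRNA gave 3 libraries, with 18026298 to 23457484 counted reads each. The other 6 libraries came from cells with the same siRNAs that received 15% FBS for 45 min after starvation, and serve here for comparison. All groups share the cell line, which is a single line, and a transfection step, and no group was left untransfected. A single siRNA against Lap2 was used, so effects of this sequence on other transcripts and effects of Lap2 loss cannot be told apart. The labels number the replicates but do not say that they came from separate cultures, and p-values then measure only the spread between these libraries, which may be technical.

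Lap2 proteins are made from Tmpo by alternative splicing and belong to the LEM-domain proteins of the nuclear periphery. Some isoforms span the inner nuclear membrane and tether B-type lamins and chromatin there. Lap2α has no membrane anchor, and its known partners inside the nucleus include A-type lamins and the retinoblastoma protein. Fibroblasts deprived of serum leave the cell cycle and enter quiescence, a state with low expression of replication and mitosis genes, active FOXO transcription factors and abundant production of matrix. The question addressed was which classes of genes differ between control and Lap2-depleted cells before any serum is given.

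The target of the siRNA was read first. Normalized counts are counts divided by the scaled library size (trimmed mean of M values, TMM) and brought to the mean size of the 12 libraries. Tmpo (ENSMUSG00000019961, minus strand of chromosome 10 of mm10) had 2775, 2805 and 2885 normalized counts in the control siRNA libraries and 982, 1175 and 1093 in the Lap2 siRNA libraries. No Lap2 siRNA library came near the control libraries, and the transcript was left at 38.4% of control (two-sided exact permutation test, p = 0.1, the smallest that 3 libraries against 3 allow). In edgeR the log2 fold change was -1.38 (adjusted p = 8.7e-16), and it remained called with each library left out in turn. Gm26765, annotated on the opposite strand, overlaps Tmpo.

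Differences across all genes were tested on counts with edgeR, and a gene was called at a Benjamini-Hochberg adjusted p under 0.05. The fold changes given below are log2 fold changes (log2FC) of Lap2 siRNA over control siRNA in 0.3% FBS unless another serum condition is named. Of 18668 genes tested, 6810 (36.5%) were called, 3330 higher (17.8%) and 3480 lower (18.6%) in Lap2-depleted cells. Among the 10478 genes that averaged 100 or more normalized counts the share was 53.9%, with 26.7% higher and 27.2% lower, so a count of called members in a class of abundant genes is to be read against these values. Most called genes changed moderately. A log2FC above 1 was reached by 609 of the higher genes and one below -1 by 808 of the lower genes, and 196 and 262 genes passed 2 and -2. The siRNA groups did not overlap for 3076 of the higher and 3278 of the lower genes, against 43.4% of all tested genes.

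The balance of higher and lower genes depended on the scaling between libraries. Lap2 siRNA libraries had larger TMM factors (1.12 in each) than control siRNA libraries (1.04 in each), and the 10 most counted genes held 7.21% to 7.42% of their reads, against 8.74% to 8.92% in control. With scaling to total counts the median log2FC over all genes went from 0.01 to 0.12 and gave 4692 higher and 2638 lower genes, so that 64.0% instead of 48.9% of the called genes were higher. Differences of the order of this shift depend on the scaling chosen. Since these are bulk samples, fewer cells of a kind and less RNA per cell cannot be told apart.

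Libraries of the same siRNA lay together, with one exception. The first principal component of the 6 libraries (48.9% of the variance) separated the siRNAs. The second (15.2%) set Lap2 siRNA replicate 1, at 46.4, apart from replicates 2 and 3, at -23.1 and -26.5, with the control siRNA libraries between -2.77 and 6.20. Replicate 1 differed in genes for ribosomal proteins and the respiratory chain, described at the end, and counts that depend on it are given with and without it. Without it, 3588 genes were higher and 3431 lower.

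The cells were read against markers of their own and of other cell types. Of 10 fibroblast markers all were tested, 7 were called lower, among them Col3a1, Pdgfra, Col1a1 and Vim (log2FC -0.49), and 2 higher, Fn1 and S100a4 (log2FC 0.46). S100a4 had 1142 normalized counts in Lap2 siRNA replicate 1, 716 and 832 in replicates 2 and 3, and 574 to 726 in control. The 10 markers took 4.42%, 4.36% and 4.28% of the counts in control cells and 2.84%, 3.43% and 3.33% in Lap2-depleted cells. Col3a1 was the member with the most counts in control cells and Fn1 in Lap2-depleted cells. Of 6 macrophage markers 4 were tested and 2 called higher, Cd14 at 31.4, 33.8 and 23.7 against 82.6, 89.5 and 83.4 normalized counts and Csf1r at 12.8, 6.06 and 6.47 against 16.5, 32.2 and 21.6, while Itgam had no count and Ptprc and Cd68 were not called. The 6 together took between 0.00041% and 0.00092% of the counts. Of 7 adipocyte markers Cebpa, Cidec, Lep and Plin1 had no count, and Pparg was called higher at no more than 18.7 normalized counts. Of 7 skeletal muscle markers Myod1, Myf5, Myog, Ckm and Mymk had no count, and Tnnt3 was lower (log2FC -2.52, standard error 0.25, adjusted p = 4e-10). Of 6 osteoblast markers Spp1 was the 1 called and the one with the most counts, and the 4 epithelial and 3 endothelial markers tested were not called. Their part in the class results was not tested.

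Gene classes were followed as lists of textbook members. In each class the abundant members with the largest changes and no overlap between the siRNA groups are named by rule, and further members were chosen after their values were seen. Abundance was averaged over both siRNA groups, so that some members passed only through the group where they were higher. Each class is described by how many of its tested members were called and by its median log2FC. Of the genes named as called, Egr1, Dnajb9, Syvn1, Gas5, Nid1, Rps21, Rpl13a, Rpl39l and S100a4 had siRNA groups that overlapped. The median over all tested genes was 0.01. In the plot of called members by class, cell cycle, ribosome biogenesis, ERK output and proteasome genes stood at the higher end and lipid synthesis, FOXO and quiescence, matrix, protease, IGF, Hedgehog and interferon-stimulated genes at the lower end.

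**Figure D1:**
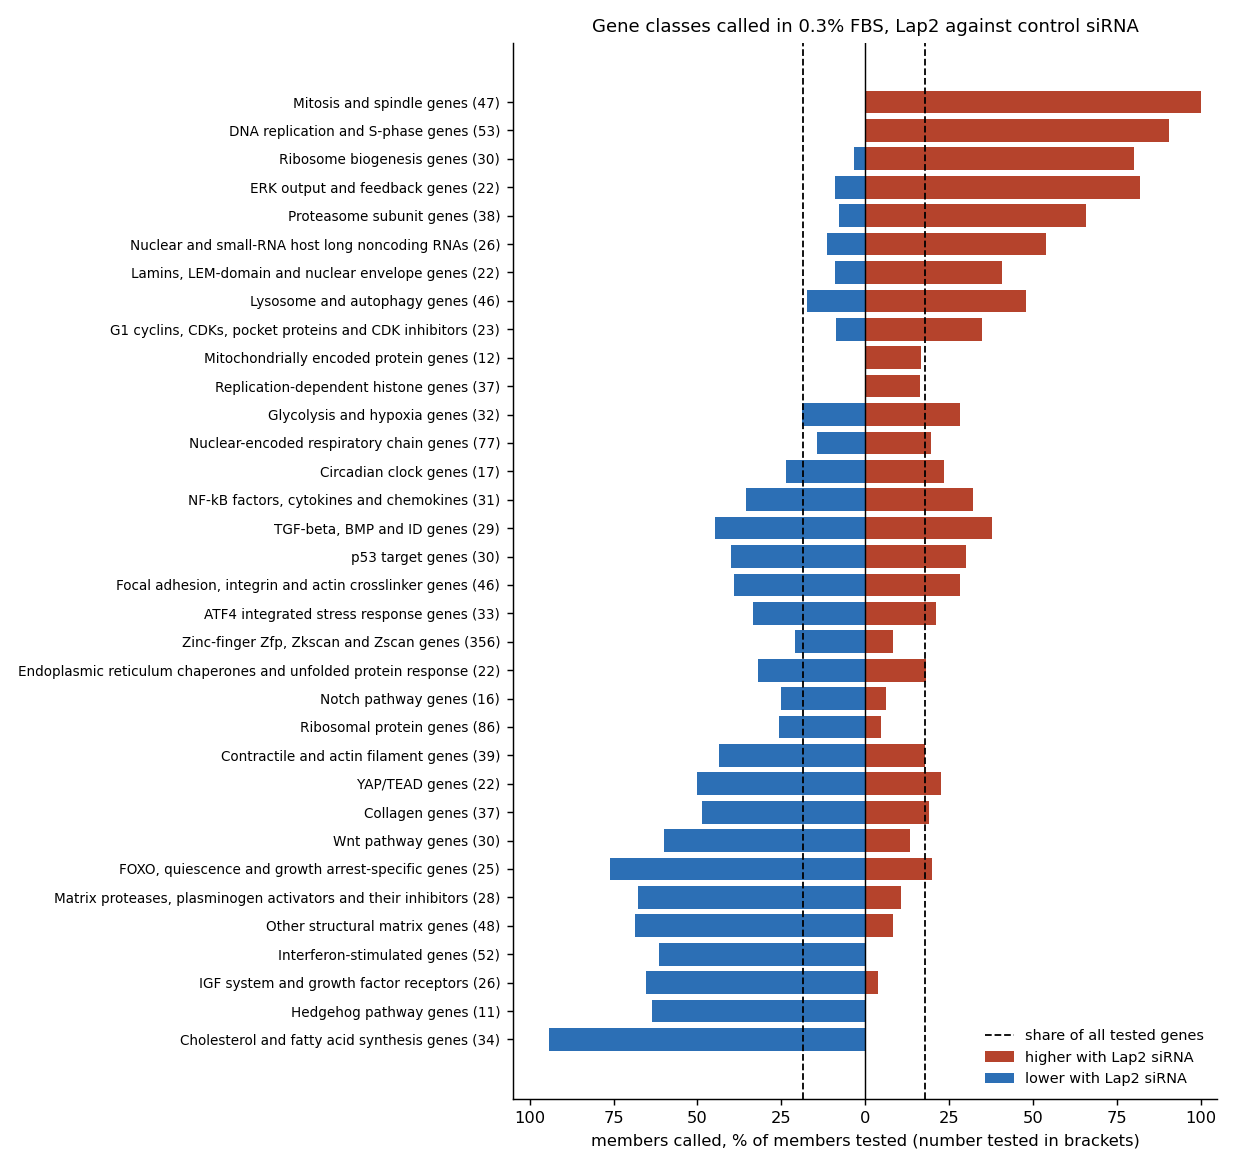
Members of each of the 34 gene classes called higher (red, to the right) or lower (blue, to the left) with Lap2 siRNA in 0.3% FBS, as a percentage of the members tested, whose number stands in brackets. Dashed lines mark the shares of all tested genes, 17.8% higher and 18.6% lower. All 47 mitosis genes were called higher and 32 of 34 lipid synthesis genes lower.

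Genes of the cell division programme were higher in starved Lap2-depleted cells almost without exception. Of 53 genes for DNA replication and S phase, 48 were called higher and 0 lower, with a median log2FC of 0.86. Of 47 genes for mitosis and the spindle, 47 were called higher, with a median of 0.89 and a range from 0.27 to 1.43. The 5 replication genes that were not called all had fold changes above 0, among them E2f1, a transcription factor of the G1 to S transition (log2FC 0.19, standard error 0.08, adjusted p = 0.083), which was called only with scaling to total counts or without Lap2 siRNA replicate 3.

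Many promoters of these classes carry short sequence motifs by which cell cycle genes are known to be held down in quiescent cells, and stretches of them are shown so that the classes can be read at the level of sequence. Promoters were taken from RefSeq (GRCm38.p6, 250 bases before to 50 after the start), and those printed are the 3 members of a class with the largest change among called members with at least 100 normalized counts and a motif before the start. Stretches are given 5′ to 3′ on the strand of the gene, with the motif in capitals and 12 flanking bases on either side. The first set holds E2F motifs, searched as TTTCCCGC, TTTCGCGC, TTTGCCGC and TTTGGCGC on both strands, in replication genes.
Pola1 (chrX:93632274-93632305, minus strand): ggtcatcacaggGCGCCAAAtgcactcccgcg
Cdc6 (chr11:98908001-98908032, plus strand): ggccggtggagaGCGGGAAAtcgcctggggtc
Mcm5 (chr8:75109348-75109379, plus strand): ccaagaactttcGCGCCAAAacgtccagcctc
An E2F motif was found in 16 of the 41 replication genes with a promoter in the table (39.0%), against 704 of 27025 genes in all (2.6%). The second set holds the cell cycle genes homology region, TTTGAA on either strand, in mitosis genes.
Mki67 (chr7:135716460-135716489, minus strand): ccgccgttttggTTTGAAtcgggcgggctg
Ect2 (chr3:27153975-27154004, minus strand): ccgtttaccggaTTTGAAacacactcacaa
Kif11 (chr19:37376351-37376380, plus strand): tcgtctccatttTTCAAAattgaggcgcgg
This shorter word was present in 28 of 39 mitosis genes (71.8%), against 20.2% of all genes. A match describes the letters of the window and not a bound factor.

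Among the replication genes, Ccne2, which encodes cyclin E2, the partner of CDK2 at the start of S phase, had 96.2, 98.8 and 101 normalized counts in control cells and 336, 275 and 289 in Lap2-depleted cells (log2FC 1.60, standard error 0.14, adjusted p = 4.4e-11). Tk1, thymidine kinase, had 609, 441 and 458 normalized counts in control cells and 1576, 1365 and 1351 in Lap2-depleted cells (log2FC 1.51, standard error 0.10, adjusted p = 5.1e-14). These were the largest changes of the class among abundant genes, and the lack of overlap is part of the rule that named them. Pola1, the catalytic subunit of DNA polymerase α, had 517, 400.3 and 505 normalized counts in control cells and 1036, 1139 and 1226 in Lap2-depleted cells. Cdc6, which loads the replicative helicase at origins, had 137, 104 and 107 in control and 282, 262 and 220.4 in Lap2-depleted cells. Mcm5, a subunit of that helicase, had 979, 786 and 822 in control and 1825, 1837 and 1798 in Lap2-depleted cells. Together with Pcna (log2FC 0.86), the sliding clamp of DNA polymerase, these genes cover initiation and synthesis of DNA. Every Lap2 siRNA library lay above every control siRNA library, but Pola1, Cdc6, Mcm5 and Pcna were chosen after their values were seen.

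In the mitosis class, Mki67, the antigen of proliferating cells, had 2366, 2149.6 and 2189 normalized counts in control cells and 5054, 6391 and 6561 in Lap2-depleted cells (log2FC 1.43, standard error 0.08, adjusted p = 2.2e-16). Ttk, a kinase of the spindle checkpoint, had 185, 152 and 135 normalized counts in control cells and 466, 379.7 and 371 in Lap2-depleted cells (log2FC 1.37, standard error 0.13, adjusted p = 1.2e-10). Lap2 siRNA replicate 1 was the lowest of its group for Mki67 and the highest for Ttk. Both genes lay above control in each library, which the naming rule asks for. Ccnb1, cyclin B1, had 735, 556 and 713 normalized counts in control cells and 1101, 1128 and 1167 in Lap2-depleted cells (log2FC 0.76, standard error 0.09, adjusted p = 1.4e-08). Cdk1, the kinase it activates, had the smallest log2FC of the class, with 921 ± 59.3 normalized counts in control and 1110.0 ± 124 in Lap2-depleted cells (SD, n = 3 in each group, log2FC 0.27, standard error 0.08, adjusted p = 0.0056). Ect2, needed for cytokinesis, and Kif11, the kinesin that separates spindle poles, had a log2FC of 1.19 and 1.17.

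Replication-dependent histone genes, whose transcripts lack a poly(A) tail and rise in S phase, were measured at low levels. Of 68 genes 37 were tested, 6 were called higher and 0 lower, and 15 had no count in any of the 6 libraries. The share called, 16.2%, was near that of all tested genes (17.8% higher), while the median log2FC was 0.76, with 30 members above 0 and 6 below. Summed over the class, the normalized counts were 488, 529 and 488 in control cells and 917, 760.4 and 826 in Lap2-depleted cells, with no overlap. Hist1h2ap, an H2A gene, had 106, 89.2 and 93.8 normalized counts in control cells and 271, 225 and 227 in Lap2-depleted cells (log2FC 1.32, standard error 0.15, adjusted p = 6.4e-09), but its near-identical neighbours in the cluster could share its reads. Hist1h1c, a linker histone gene, had a log2FC of 0.66 (adjusted p = 0.00052).

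Among regulators that stand upstream of S phase, more members were not called than called. Of 23 tested G1 cyclins, CDKs, pocket proteins, MYC network genes and CDK inhibitors, 8 were called higher, 2 lower and 13 neither, with a median log2FC of 0.11. Myc, a transcription factor that promotes growth, had 371, 359 and 355 normalized counts in control cells and 590.4, 639.8 and 585 in Lap2-depleted cells (log2FC 0.74, standard error 0.07, adjusted p = 7.5e-10). Mxd4, which encodes a partner of MAX that opposes MYC, had 5107, 5117 and 5084 normalized counts in control cells and 2888, 2989 and 2709 in Lap2-depleted cells (log2FC -0.83, standard error 0.06, adjusted p = 2.3e-12). Myc and Mxd4 were each named by the rule as a largest change in their direction, so their opposite signs follow from the choice. Besides Mxd4, Ccnd3 (log2FC -0.25) was lower. Among CDK inhibitors, Cdkn2d (log2FC 0.61) was called higher, Cdkn1a, which encodes p21, was not called (log2FC 0.10, standard error 0.09, adjusted p = 0.43), and Cdkn2a and Cdkn2b had no count in any of the 6 libraries.

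Of 30 p53 targets 9 were called higher and 12 lower, with a median of -0.13. Of the 26 abundant members 7 were higher, near the 26.7% of all genes as abundant, and 11 lower, against 27.2%. Fas, a death receptor, and Zmat3, an RNA-binding protein, were lower (log2FC -0.85 and -0.75), and Plk3, a stress-responsive kinase, was higher (log2FC 0.65).

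Genes of quiescence and growth arrest were mostly lower. Of 25 FOXO pathway, quiescence-associated and growth arrest-specific genes, 19 were called lower and 5 higher, with a median log2FC of -0.43. Txnip, an inhibitor of thioredoxin that responds to glucose and FOXO, had 4277, 5408 and 4878 normalized counts in control cells and 1521, 1645 and 1832 in Lap2-depleted cells (log2FC -1.54, standard error 0.09, adjusted p = 5.9e-15). Gas6, the ligand of TAM receptors first found as a growth arrest-specific gene, had 3402, 3318 and 3262 in control and 1285, 1221 and 1161 in Lap2-depleted cells (log2FC -1.44, standard error 0.07, adjusted p = 2.7e-17). Both genes were left at 34.3% and 36.7% of the control mean, respectively. The 5 that were higher were Gas2l3 (1.09), Cited2 (0.89), Klf9 (0.64), Gas2 (0.53) and Bcl6 (0.49), with the log2FC in brackets. Gas2l3 is grouped here by its name, but it encodes a cytoskeletal protein of dividing cells.

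The plot of single genes shows their values in each library. Most of these genes were named by a rule that asks for a call, a large change and no overlap, or were chosen after their values were seen, so that their distance from control was fixed by the choice.

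**Figure D2:**
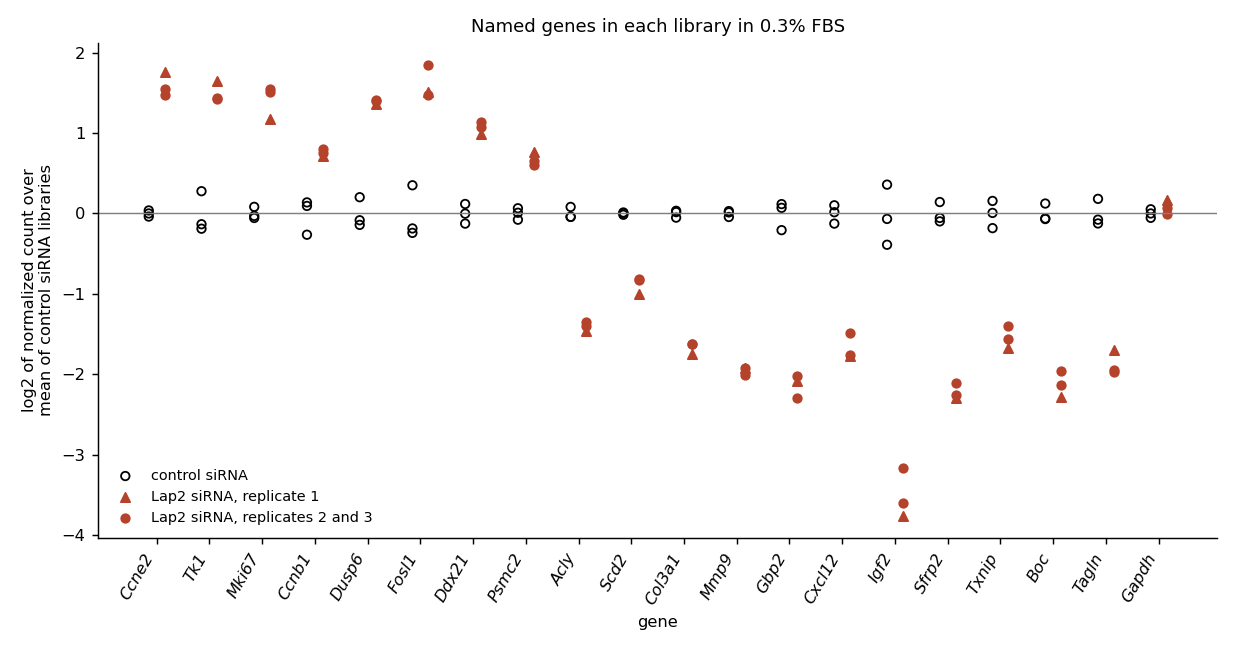
Normalized counts of 20 named genes in each of the 6 libraries in 0.3% FBS, as log2 of the ratio to the mean of the control siRNA libraries (open circles, control siRNA; triangles, Lap2 siRNA replicate 1; filled circles, Lap2 siRNA replicates 2 and 3). Apart from Gapdh, a glycolytic reference gene, no gene has overlapping groups, from Ccne2 (log2FC 1.60) to Igf2 (log2FC -3.49).

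ERK output genes were mostly higher. This class holds genes that the RAS and ERK cascade induces and that feed back on it. Of 22 members 18 were called higher, with a median log2FC of 1.13. The phosphatase gene Dusp4 had 33.4, 20.8 and 27.0 normalized counts in control cells and 158, 229 and 210.1 in Lap2-depleted cells (log2FC 2.88, standard error 0.28, adjusted p = 2.9e-10). Dusp6, a phosphatase of ERK itself, had 355, 279.9 and 291 in control and 793, 816 and 819.9 in Lap2-depleted cells (log2FC 1.39, standard error 0.08, adjusted p = 2.2e-15). Fosl1, which encodes the AP-1 subunit FRA1, had 189, 126 and 131 normalized counts in control cells and 423, 534 and 411 in Lap2-depleted cells (log2FC 1.62, standard error 0.11, adjusted p = 1.7e-13). For these 3 genes all Lap2 siRNA libraries were above all control siRNA libraries. The feedback inhibitors were split, with Spry4 (log2FC 1.17) and Spred1 (log2FC 0.81) higher and Spry1 (log2FC -0.55) and Spry2 (log2FC -0.20) lower. Of the immediate-early genes that respond to serum through SRF and its TCF partners, Egr3 (log2FC 0.55) and Egr1 (log2FC 0.32) were called higher, although for Egr1 the highest control library lay above the lowest Lap2 siRNA library, and Fos was not called (log2FC 0.25, standard error 0.19, adjusted p = 0.35).

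Genes that build ribosomes and degrade proteins were mostly higher. Of 30 ribosome biogenesis genes 24 were called higher and 1 lower, with a median log2FC of 0.54. Rrp12, which takes part in export and maturation of ribosomal subunits, had 395, 342 and 339 normalized counts in control cells and 746, 872 and 803 in Lap2-depleted cells (log2FC 1.17, standard error 0.09, adjusted p = 3.2e-12). Ddx21, a nucleolar helicase, had 1706, 1569 and 1440.0 in control and 3121, 3463 and 3319 in Lap2-depleted cells (log2FC 1.07, standard error 0.07, adjusted p = 8.3e-14). Ncl, nucleolin, had a log2FC of 0.50. The lower gene was Ubtf (log2FC -0.35, standard error 0.06, adjusted p = 1.1e-05), a factor for transcription of ribosomal DNA by RNA polymerase I. Of 38 proteasome genes 25 were called higher and 3 lower, with a median of 0.33. The class took 0.4905% of the counts in Lap2 siRNA replicate 1 and 0.436% and 0.437% in replicates 2 and 3. In the control libraries it took 0.327% to 0.344%. Psmc2 and Psmd1, subunits of the regulatory particle, had a log2FC of 0.68 and 0.66. Among the 3 lower members, Psmb9 (log2FC -1.54, standard error 0.23, adjusted p = 2e-06) and Psmb8 encode subunits of the interferon-inducible immunoproteasome, and Psmb8 had 3.93, 6.06 and 14.0 normalized counts with control siRNA and 0 in each Lap2 siRNA library. The third, Psmc1, is a regulatory subunit like Psmc2 and went the opposite way in all libraries, from 2163, 2099 and 2029 with control siRNA to 1020.1, 1145 and 1145 with Lap2 siRNA (log2FC -0.93, standard error 0.07, adjusted p = 7.4e-13).

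Structural matrix genes were mostly lower. Of 37 tested collagen genes 18 were called lower and 7 higher (median log2FC -0.33), and of 48 other structural matrix genes 33 were called lower and 4 higher (median -0.61). Collagen genes together took 4.24%, 4.18% and 4.09% of the counts of the control siRNA libraries and 2.24%, 2.67% and 2.56% of those of the Lap2 siRNA libraries. Col3a1, a fibrillar collagen of soft tissue, had 206852, 216957 and 219400.0 normalized counts in control cells and 63667, 69713 and 69408 in Lap2-depleted cells (log2FC -1.67, standard error 0.07, adjusted p = 1.6e-18). Col5a3, a chain of collagen V, had 5999, 5997 and 6023 in control and 858, 1205 and 1161 in Lap2-depleted cells (log2FC -2.49, standard error 0.09, adjusted p = 3.2e-20). Both dropped below every control library, which the naming rule asks for, and Col5a3 was left at 17.9% of the control mean. Col1a1, a chain of collagen I, was lower too (log2FC -0.78, standard error 0.08, adjusted p = 4.3e-10). The collagen with the largest increase among abundant members, Col11a2, was at 139, 86.6 and 99.2 normalized counts in control cells and 264, 390.1 and 249 in Lap2-depleted cells (log2FC 1.48, standard error 0.18, adjusted p = 3.5e-08).

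Microfibril genes had the largest falls among the abundant other matrix genes. Mfap4, a microfibril-associated glycoprotein, had 501, 594 and 531 normalized counts in control cells and 28.5, 39.5 and 47.4 in Lap2-depleted cells (log2FC -3.83, standard error 0.15, adjusted p = 4.3e-19). Mfap5, another microfibril protein, had 300.3, 420.2 and 376 in control and 56.9, 34.3 and 57.7 in Lap2-depleted cells (log2FC -2.87, standard error 0.17, adjusted p = 3e-15). Eln, tropoelastin, Dcn, the collagen-binding proteoglycan decorin, and Lox, the crosslinking enzyme lysyl oxidase, were lower as well (log2FC -1.69, -1.52 and -0.40). The 4 higher genes were Thbs2, an antiangiogenic thrombospondin (log2FC 0.90, standard error 0.07, adjusted p = 5.8e-13), Fn1, which encodes fibronectin (log2FC 0.37, standard error 0.07, adjusted p = 9.2e-05), Lama2 (log2FC 0.34) and Nid1 (log2FC 0.20), the last 2 being proteins of basement membranes.

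Enzymes that remodel the matrix, and their inhibitors, were mostly lower. Of 28 tested proteases and inhibitors 19 were called lower and 3 higher, with a median log2FC of -0.73. Mmp9, a gelatinase, had 1836, 1816 and 1745 normalized counts in control cells and 476, 448 and 476 in Lap2-depleted cells (log2FC -1.95, standard error 0.09, adjusted p = 2.8e-18). Adamts1, a protease of proteoglycans, had 27261, 29599 and 27070.5 in control and 8016, 9312 and 9060.3 in Lap2-depleted cells (log2FC -1.67, standard error 0.10, adjusted p = 1.1e-14). The higher genes included Plaur, the urokinase receptor (log2FC 0.83, standard error 0.12, adjusted p = 8.4e-07), and Timp4, an inhibitor of metalloproteinases, which had at most 21.1 normalized counts in the 6 libraries in 0.3% FBS.

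**Figure D3:**
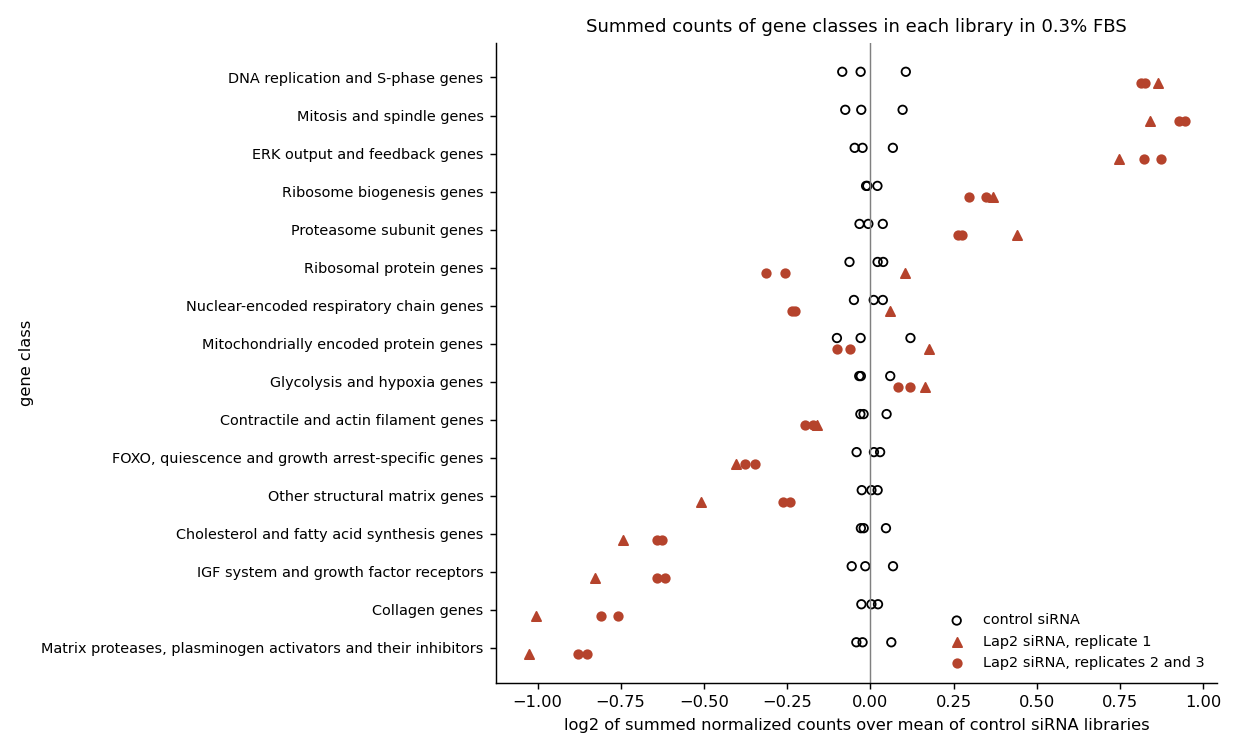
Summed normalized counts of 16 gene classes in each of the 6 libraries in 0.3% FBS, as log2 of the ratio to the mean of the control siRNA libraries (open circles, control siRNA; triangles, Lap2 siRNA replicate 1; filled circles, Lap2 siRNA replicates 2 and 3). Cell cycle and ERK classes lie to the right and collagen and protease classes to the left in all Lap2 siRNA libraries, while for ribosomal protein and respiratory chain genes replicate 1 lies on the other side of control from replicates 2 and 3.

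In the IGF system and among growth factor receptors, 17 of 26 tested genes were called lower and 1 higher, with a median log2FC of -0.43. Igf2, the fetal insulin-like growth factor, which is imprinted, had 10367, 17413 and 12954 normalized counts in control cells and 1001, 1116 and 1507 in Lap2-depleted cells (log2FC -3.49, standard error 0.17, adjusted p = 1.9e-17). H19, the imprinted noncoding RNA next to it, had 16362, 24005 and 20436 normalized counts in control cells and 1027, 1069 and 1289.6 in Lap2-depleted cells (log2FC -4.17, standard error 0.13, adjusted p = 1.1e-21). Igf2os, which is transcribed from the opposite strand of Igf2, was lower as well (log2FC -3.19, standard error 0.17, adjusted p = 4e-16), but the counting setting for strand is not given in the sources used here, so reads of Igf2 and Igf2os cannot be told apart. Igfbp5, a binding protein that modulates IGF action, had 219.8, 272 and 209 normalized counts in control cells and 17.4, 11.4 and 18.5 in Lap2-depleted cells (log2FC -3.87, standard error 0.20, adjusted p = 1.8e-16). Pdgfra, a PDGF receptor that also marks fibroblasts, had 29526, 33343 and 32089 in control and 9056, 10877 and 11127 in Lap2-depleted cells (log2FC -1.61, standard error 0.09, adjusted p = 2.3e-16). In each of these genes the highest Lap2 siRNA library was below the lowest control siRNA library. The naming rule asks for this, and Pdgfra was chosen after its values were seen. The gene that went the other way was Flt1 (log2FC 1.71), a VEGF receptor.

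In the Wnt pathway 18 of 30 tested genes were called lower and 4 higher, with a median of -0.74. Wnt9a, a ligand, had 357, 360.4 and 407 normalized counts in control cells and 92.7, 64.5 and 51.5 in Lap2-depleted cells (log2FC -2.41, standard error 0.15, adjusted p = 1.7e-14). Sfrp2, a secreted modulator that binds Wnt ligands, had 3118, 3684 and 3212 in control and 680.4, 698 and 776 in Lap2-depleted cells (log2FC -2.22, standard error 0.10, adjusted p = 3.7e-18). The 4 higher genes were the transcription factor Lef1 (log2FC 0.82), the antagonist Dkk2 (log2FC 0.79), Ccn5 (log2FC 0.66) and the receptor Fzd7 (log2FC 0.61). Secreted modulators of Wnt ligands were thus found on both sides.

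Of 11 tested Hedgehog pathway genes 7 were called lower and 0 higher, with a median of -0.40. Boc and Cdon, co-receptors that present the ligand to Patched, had a log2FC of -2.12 and -1.03. Boc was measured at 1371, 1567 and 1377 normalized counts with control siRNA and at 297, 328 and 369 with Lap2 siRNA (adjusted p = 7e-17). Gli1, a transcription factor that is also a target of the pathway, was lower at 80.5, 50.3 and 60.4 against 16.5, 20.8 and 5.15 normalized counts (log2FC -2.15, standard error 0.33, adjusted p = 2.2e-06). Of 16 tested Notch genes 4 were called lower, a share near the 18.6% of all genes, and 2 without control siRNA replicate 1, and 1 of the 7 abundant members was lower. The median of the class was -0.16. Summed over the class, the normalized counts were 11938, 11651 and 11184 in control cells and 10509, 12946 and 12531 in Lap2-depleted cells. Lap2 siRNA replicate 1 thus lay below all control libraries and replicates 2 and 3 above them. The lower genes were Jag1, a ligand (log2FC -1.69, standard error 0.08, adjusted p = 1.4e-17), Notch3 (log2FC -1.40), Lfng (log2FC -0.99) and Dll1, the last at no more than 10.8 normalized counts in any of the 6 libraries in 0.3% FBS. Rbpj, the DNA-binding partner of the Notch intracellular domain, was the 1 member called higher (log2FC 0.80, standard error 0.07, adjusted p = 2.4e-11).

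TGF-beta and BMP genes split into opposing sets. Of 29 tested, 11 were called higher and 13 lower, with a median of -0.02 that turns to 0.09 with scaling to total counts. On the lower side were Chrd, the BMP antagonist chordin (log2FC -2.06, standard error 0.11, adjusted p = 4.8e-16), and Fstl1, a follistatin-like secreted protein (log2FC -1.06, standard error 0.07, adjusted p = 1.5e-14). On the higher side were Grem1, another BMP antagonist (log2FC 2.50, standard error 0.21, adjusted p = 9.3e-12), and the SMAD-induced genes Smad7 (log2FC 1.28), Id1 (log2FC 1.01) and Id2 (log2FC 1.26).

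Many interferon-stimulated genes were lower. Of 52 tested members 32 were called lower and 0 higher, with a median log2FC of -0.89. Many of them are expressed at low levels in these cells, and 15 of the 23 members that averaged 100 or more normalized counts were called lower (65.2%, against 27.2% of all genes as abundant), with a median of -0.38. This share depends in part on the change itself. Parp14, for example, averaged 154 with control and 52.6 with Lap2 siRNA and passed the minimum only through the control libraries. Gbp2, a guanylate-binding GTPase, had 533, 667 and 646 normalized counts in control cells and 145, 151 and 126 in Lap2-depleted cells (log2FC -2.13, standard error 0.11, adjusted p = 3.6e-16). Parp14, an ADP-ribosyltransferase, had 113, 172 and 177 in control and 61.5, 54.1 and 42.2 in Lap2-depleted cells (log2FC -1.54, standard error 0.19, adjusted p = 5e-08). Of the factors that drive the class, Stat2 (log2FC -0.89, standard error 0.07, adjusted p = 7.5e-12), Irf1 (log2FC -0.57) and Irf7, at 51.0, 59.8 and 52.9 against 6.43, 11.4 and 16.5 normalized counts, were lower.

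Stretches of promoters with the interferon-stimulated response element, searched on both strands as GAAA, any 2 bases and GAAA again, are shown for the 3 members chosen as above, with the motif in capitals.
Gbp2 (chr3:142620592-142620625, plus strand): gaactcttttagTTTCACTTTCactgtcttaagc
Stat2 (chr10:128270264-128270297, plus strand): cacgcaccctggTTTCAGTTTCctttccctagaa
Bst2 (chr8:71537575-71537608, minus strand): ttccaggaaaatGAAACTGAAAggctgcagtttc
The element was present in 20 of 40 members with a promoter in the table, against 3.99% of all genes. Bst2, the antiviral tether tetherin, had a log2FC of -0.62.

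Inflammatory genes did not move together. Of 31 tested NF-kB factors, cytokines and chemokines 10 were called higher and 11 lower, with a median of 0.09. Cxcl12, a constitutive chemokine of stromal cells, had 4674, 5473 and 5156 normalized counts in control cells and 1497, 1508 and 1817 in Lap2-depleted cells (log2FC -1.67, standard error 0.08, adjusted p = 3.1e-17). Nfkbie, an inhibitor of NF-kB, was lower (log2FC -1.48, standard error 0.13, adjusted p = 8.3e-11), and Il1rl1, the IL-33 receptor, which fibroblasts release in a soluble form, was higher, with 3116, 3111 and 3427 in control and 6395, 6883 and 7070.3 in Lap2-depleted cells (log2FC 1.08, standard error 0.08, adjusted p = 2.3e-13).

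Lipid synthesis was the class with the largest share of lower genes. Of 34 genes of cholesterol and fatty acid synthesis 32 were called lower and 0 higher, with a median log2FC of -0.61. Their summed share of counts was 1.12%, 1.06% and 1.07% in control cells and 0.698%, 0.761% and 0.749% in Lap2-depleted cells. Acly, which makes cytosolic acetyl-CoA from citrate, had 19528, 17924 and 17918 normalized counts in control cells and 6672, 7210.0 and 6966 in Lap2-depleted cells (log2FC -1.41, standard error 0.06, adjusted p = 2.3e-18). Idi1, an isomerase of the isoprenoid branch, had 5489.9, 5843 and 5884 in control and 2572, 2328 and 2426 in Lap2-depleted cells (log2FC -1.23, standard error 0.06, adjusted p = 1.6e-16). Scd2, a desaturase of fatty acids and the member with the most counts, had 42974, 42724 and 42134 in control and 21194, 24092 and 24170.1 in Lap2-depleted cells (log2FC -0.88, standard error 0.06, adjusted p = 9.1e-14). Members of both the sterol and the fatty acid branch were thus lower. Sqle, the squalene epoxidase, was lower as well (log2FC -0.48). The 2 members not called were Srebf1 (log2FC 0.04) and Insig1 (log2FC -0.13), which encode a transcription factor and a regulator of the pathway.

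Stress pathways of amino acids and of the endoplasmic reticulum showed no common direction. Of 33 ATF4 target genes 7 were called higher and 11 lower, with a median of -0.09 that turns to 0.02 with scaling to total counts. Slc7a5, a transporter of large amino acids, and Atf5 were lower (log2FC -1.32, standard error 0.09, adjusted p = 2.9e-14 for the former, log2FC -1.15 for the latter), and Shmt2, a mitochondrial enzyme of serine metabolism, was higher (log2FC 0.63, standard error 0.07, adjusted p = 1.5e-08). Of 22 endoplasmic reticulum genes 4 were called higher, Hyou1 (0.35), Ern1 (0.27), Dnajb9 (0.25) and Syvn1 (0.24), and 7 lower, led by Atf6 (-0.59) and Sel1l (-0.44), with the log2FC in brackets. All changes called in the endoplasmic reticulum class were below 1 on the log2 scale, the median of the class was -0.11, and the 7 lower genes became 3 with scaling to total counts.

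Contractile and adhesion genes, which include the targets of MRTF and SRF that the study followed, were more often called lower than higher in starved cells. Of 39 tested contractile and actin filament genes 17 were called lower (43.6%) and 7 higher (17.9%), with a median log2FC of -0.16. Of the 34 abundant members 16 were lower and 7 higher, against 27.2% and 26.7% of all genes as abundant. The higher members were thus no more frequent than among all genes. Acta2, smooth muscle actin, had 8181, 6473 and 6077 normalized counts in control cells and 3331, 2977 and 3217 in Lap2-depleted cells (log2FC -1.12, standard error 0.08, adjusted p = 9.7e-14). Tagln, transgelin, which lies opposite Pcsk7, had 1777, 1437 and 1485 in control and 483, 406 and 398 in Lap2-depleted cells (log2FC -1.87, standard error 0.09, adjusted p = 6.9e-18). Vcl, which encodes the adhesion protein vinculin, was not called (log2FC -0.15, standard error 0.08, adjusted p = 0.17), and its groups overlapped. These 3 genes were read because the study names them as known targets of MRTF and SRF. Myl6, a myosin light chain, had 11094, 10499 and 10067 normalized counts in control cells and 5023, 4011 and 3431 in Lap2-depleted cells (log2FC -1.34, standard error 0.08, adjusted p = 1.4e-14). The opposite was seen for Mylk, the kinase of myosin light chains, with 147, 146 and 162 in control and 346, 439 and 418 in Lap2-depleted cells (log2FC 1.40, standard error 0.11, adjusted p = 5.2e-12).

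The CArG box, the motif bound by SRF, was found in 7 of 35 promoters of the class (20.0%), against 1.81% of all genes, and in 3 of the 14 promoters of members called lower. These 3 stretches are printed with the box in capitals.
Myl6 (chr10:128493038-128493071, minus strand): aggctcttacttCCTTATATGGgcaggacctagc
Myl9 (chr2:156775291-156775324, plus strand): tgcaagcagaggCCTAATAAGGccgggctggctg
Cnn2 (chr10:79988532-79988565, plus strand): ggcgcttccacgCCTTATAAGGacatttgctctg
Myl9, a regulatory light chain of myosin, and Cnn2, a calponin, had a log2FC of -1.09 and -0.87.

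Among 46 tested focal adhesion, integrin and actin crosslinker genes 13 were called higher and 18 lower, with a median of -0.15. Of the 40 abundant members 11 were higher, near the 26.7% of all genes as abundant, and 18 lower, against 27.2%. Summed over the class, the normalized counts were 193051, 190014 and 183375 in control cells and 152945, 175707 and 173414 in Lap2-depleted cells. All Lap2 siRNA libraries thus lay below control, with replicate 1 the lowest. As shares of raw counts, replicate 1 had 0.811%, replicates 2 and 3 had 0.937% and 0.919%, and the control libraries 0.90% to 0.95%. Itgb3, the β3 integrin, was lower (log2FC -1.64, standard error 0.12, adjusted p = 3.8e-13), as was Pdlim2 (log2FC -0.97), while Fhl2, a LIM protein of adhesions, was higher, with 715, 542 and 636 normalized counts in control cells and 1278, 1164 and 1108 in Lap2-depleted cells (log2FC 0.91, standard error 0.09, adjusted p = 1.5e-10). Of 22 YAP and TEAD genes 11 were lower and 5 higher, with a median of -0.25. The same 11 and 5 were called among the 21 abundant members. Lap2 siRNA replicate 1 was the lowest library, with 0.234% of its counts in the class. Replicates 2 and 3 had 0.267% and 0.270%, and the control libraries 0.280% to 0.295%. Ccn2, a secreted matricellular protein, had 501, 306 and 372 normalized counts in control cells and 2009.9, 2011 and 1888 in Lap2-depleted cells (log2FC 2.33, standard error 0.10, adjusted p = 1.2e-18). Its relative Ccn1 (log2FC 1.54, standard error 0.10, adjusted p = 1.8e-14), Tgfb2 (log2FC 1.24), Ankrd1 (log2FC 0.64) and Tead4 (log2FC 0.58) were the others that rose, and the transcription factor gene Tead2 (log2FC -1.12, standard error 0.06, adjusted p = 1.9e-15) and the YAP-binding phosphatase gene Ptpn14 (log2FC -0.73) fell. Tead4 was hence on the other side from Tead2.

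Nuclear envelope genes other than Tmpo were mostly not called or higher. Of 22 tested 9 were called higher and 2 lower, with a median log2FC of 0.09. The LEM-domain nuclease gene Ankle1 was higher, with 124, 86.6 and 97.1 normalized counts in control cells and 327, 291 and 231 in Lap2-depleted cells (log2FC 1.47, standard error 0.16, adjusted p = 2.6e-09). The B-type lamin genes diverged, Lmnb2 higher (log2FC 0.76, standard error 0.09, adjusted p = 1.5e-08) and Lmnb1 lower, with 1276, 1152 and 1154 in control and 926, 872 and 901 in Lap2-depleted cells (log2FC -0.41, standard error 0.08, adjusted p = 4.3e-05). The other lower member was Syne3 (log2FC -0.39), a nesprin.

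Lysosome genes leaned to the higher side, 22 of 46 higher and 8 lower, with a median of 0.14. Gpnmb (log2FC 3.36), a glycoprotein of melanosomes and lysosomes, and Gla, α-galactosidase (log2FC 1.32, standard error 0.09, adjusted p = 5.9e-14), rose the most among abundant members, and Mitf, a transcription factor for lysosome genes, was higher as well (log2FC 1.00). Ctsd, cathepsin D, was lower, with 8064, 7945 and 7847 normalized counts in control cells and 3856, 3827 and 3482 in Lap2-depleted cells (log2FC -1.10, standard error 0.07, adjusted p = 8.5e-14).

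Several classes were close to the share of all genes or rested on a library. Of 86 tested ribosomal protein genes 22 were called lower and 4 higher, with a median of -0.14. The higher members were Rps21 (0.29), Rpl13a (0.27), Rpl39l (0.27) and Rpl7l1 (0.19), with the log2FC in brackets. For the first 3, Lap2 siRNA replicate 1 stood far above the rest, at 20815, 1743 and 2572 normalized counts. Replicates 2 and 3 had 13516 and 13727.5 for Rps21, 1157 and 1143 for Rpl13a, and 1867 and 1765.5 for Rpl39l. The highest control libraries had 14274, 1204 and 1855. Genes of the class took 7.38%, 6.88% and 7.30% of the counts in control cells and 8.32%, 6.26% and 6.48% in Lap2-depleted cells, so that replicate 1 was the highest and replicates 2 and 3 the lowest of the 6 libraries. Without replicate 1, 72 of them were called lower. Rplp0, the member with the most counts, was not called (log2FC -0.11, standard error 0.07, adjusted p = 0.23) but was called lower without that library (log2FC -0.23). Rpl22 and Rpl7, among the 22, had a log2FC of -0.46 and -0.45. Processed pseudogenes of these genes could share their reads.

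The same library stood apart for the respiratory chain. Of 77 tested nuclear-encoded genes 15 were called higher and 11 lower, with 7 higher without Lap2 siRNA replicate 1 and 34 with scaling to total counts, and the median was 0.08. Atp5l and Ndufa1 were higher (log2FC 0.43 and 0.39). Atp5l had 2269 normalized counts in Lap2 siRNA replicate 1, 1574 and 1608 in replicates 2 and 3, and 1284 to 1402 in control. Atp5b, the catalytic β subunit of ATP synthase, was lower in all libraries, from 19238, 18574 and 19074 with control siRNA to 8296, 7617 and 7679 with Lap2 siRNA (log2FC -1.27, standard error 0.06, adjusted p = 7.1e-18). The gene was the member with the most counts in the class. Of 12 tested mitochondrially encoded protein genes 2 were called higher, mt-Nd1 (log2FC 0.28, standard error 0.08, adjusted p = 0.0033) and mt-Nd6 (log2FC 0.33, standard error 0.10, adjusted p = 0.01), which lies opposite mt-Nd5, and 1 without Lap2 siRNA replicate 1, and the median was 0.10.

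Glycolysis and hypoxia genes had 9 of 32 members higher, 15 with scaling to total counts, and 6 lower, with a median of 0.08. Pgam1 (log2FC 0.48, standard error 0.07, adjusted p = 4.9e-07) and Hk2 (log2FC 0.50) were among the former and Adm, adrenomedullin (log2FC -1.06), among the latter. Of 17 clock genes 4 were higher, 7 with scaling to total counts, and the median was 0.12. The 4 were Nfil3 (0.68), Bhlhe41 (0.44), Nr1d2 (0.42) and Bhlhe40 (0.30), and 4 others were lower, Dbp (-1.29), Per3 (-0.70), Tef (-0.60) and Cry1 (-0.36), with the log2FC in brackets. Of 356 tested zinc-finger genes with the names Zfp, Zkscan or Zscan 29 were higher and 75 lower, 49 lower with scaling to total counts, which turns the median from -0.07 to 0.04. Zfp57, which maintains imprints, was at 1091, 964 and 968 normalized counts in control cells and 469, 486 and 465 in Lap2-depleted cells (log2FC -1.09, standard error 0.10, adjusted p = 2.1e-10), and Zfp41 fell by 0.97 on the log2 scale. Zfp367 was the most raised of the abundant members (log2FC 1.37, standard error 0.12, adjusted p = 5.1e-11). Of 26 tested nuclear and small-RNA host noncoding RNAs, with a median of 0.46, 14 were called higher, among them Malat1 (log2FC 0.89, standard error 0.12, adjusted p = 3.6e-07), Neat1 (log2FC 0.67) and Snhg17 (log2FC 0.85), and 3 lower, H19, Snhg12 (log2FC -0.32) and Gas5 (log2FC -0.18). By annotated type, 14 of 114 tested snoRNA genes were called higher and 0 lower, at a median of 3.27 normalized counts. The share called higher, 12.3%, was below the 17.8% of all tested genes.

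Across all genes with at least 100 normalized counts, the largest rises were those of Cd300lb, an immunoreceptor of myeloid cells, Gpnmb, Slc40a1, the iron exporter ferroportin, Vip, the vasoactive intestinal peptide, Dock8, Ranbp3l, Dusp4, Grem1, Ccn2 and Spp1, which encodes osteopontin. Cd300lb had 7.85, 6.06 and 3.24 normalized counts in control cells and 188, 228 and 214 in Lap2-depleted cells (log2FC 5.15, standard error 0.40, adjusted p = 1.9e-12). Slc40a1 had 37.3, 35.5 and 19.4 in control and 310.3, 315 and 301 in Lap2-depleted cells (log2FC 3.30, standard error 0.21, adjusted p = 1.8e-14). Vip had 102, 64.1 and 80.9 in control and 851, 686 and 871 in Lap2-depleted cells (log2FC 3.29, standard error 0.15, adjusted p = 4.6e-18). For 8 of the 10 genes, all but Ccn2 and Spp1, the control mean was under 100 normalized counts, so that they passed this minimum only through the Lap2 siRNA libraries and had to differ. Spp1, abundant in both groups, had 3415, 3065 and 3509.9 in control and 18321, 15304 and 15340.5 in Lap2-depleted cells (log2FC 2.29, standard error 0.08, adjusted p = 8.4e-21), and Dock8 (log2FC 3.13) and Ranbp3l (log2FC 3.08) completed the list.

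The largest falls were those of H19, Igfbp5, Pi16, Mfap4, Igf2, Apod, Krt15, Igf2os, Podn and Nbl1. Pi16, a marker of fibroblasts of the adventitia, had 542, 849 and 675 normalized counts in control cells and 53.3, 39.5 and 50.5 in Lap2-depleted cells (log2FC -3.84, standard error 0.18, adjusted p = 1.2e-17). Apod, apolipoprotein D, which is known to rise in arrested fibroblasts, had 255, 315 and 325 in control and 26.6, 29.1 and 28.8 in Lap2-depleted cells (log2FC -3.40, standard error 0.18, adjusted p = 4.3e-16). Nbl1, a secreted BMP antagonist, had 1737, 2138 and 1896 in control and 249, 225 and 249 in Lap2-depleted cells, or 12.5% of control (adjusted p = 8.4e-21). Podn, a small proteoglycan, and Krt15, a keratin, had a log2FC of -3.12 and -3.27. For 7 of the 10 genes, all but H19, Igf2 and Nbl1, the mean with Lap2 siRNA was under 100 normalized counts, and they passed the minimum only through the control libraries. Mapk7 overlaps Mfap4 on the opposite strand.

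The effects in starved cells were set beside those of the same siRNAs after 45 min in 15% FBS, in separate libraries. With 15% FBS 2125 genes were called higher (11.4%) and 2250 lower (12.1%). Of the 3330 genes higher in 0.3% FBS, 1331 were also called higher and 104 called lower in 15% FBS, and of the 3480 lower genes 1636 were also called lower and 71 called higher. Whether an effect differed between serum conditions was tested directly as an interaction, the log2FC in 15% FBS minus that in 0.3% FBS, which was called for 2540 of all genes (13.6%), above 0 for 7.09% and below 0 for 6.51%. It was called for 996 of the genes higher in 0.3% FBS, with the sign opposite to the effect, toward a smaller effect or past 0, in 971, and for 1125 of the lower ones, likewise in 1081. Since these genes were picked by their effect in 0.3% FBS, a shift of this sign in other libraries is favoured by the choice itself. The depletion itself differed between the serum conditions. Tmpo had a log2FC of -1.38 in 0.3% FBS and -2.17 in 15% FBS (interaction -0.79, adjusted p = 3e-06 in edgeR). The part of this difference in the other interactions was not tested.

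For mitosis genes the interaction was called for 46 of 47 members, all 46 below 0, that is toward a smaller effect or past 0, and the median log2FC was 0.22 in 15% FBS, where 20 were called higher and 5 lower. For replication genes it was called for 38 of 53, with a median of 0.15, 17 higher and 3 lower. Mki67 had a log2FC of 0.38 in 15% FBS (interaction -1.04, adjusted p = 8.7e-09), and Cdk1 turned from 0.27 in 0.3% FBS to -0.53 in 15% FBS (interaction adjusted p = 2.8e-06). Of the ERK output genes 16 of 22 were called by interaction, all toward a lower value, with a median of -0.08 in 15% FBS, 3 higher and 6 lower. Dusp6 went from 1.39 to -0.47 (interaction adjusted p = 2.7e-14) and Ccn2 from 2.33 to -1.86 (interaction adjusted p = 1.7e-21). Among genes lower in starved cells, Igf2 had a log2FC of -0.36 in 15% FBS (interaction adjusted p = 3.3e-12) and Txnip one of 0.20 (interaction adjusted p = 4.2e-11).

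Lipid synthesis genes were lower in both serum conditions. In 15% FBS 33 of 34 were called lower, with a median of -0.77, and the interaction was called for 7, all toward a larger loss. Acly had -1.41 in 0.3% FBS and -1.28 in 15% FBS, with an interaction that was not called (adjusted p = 0.38). Of the contractile genes 27 of 39 were called lower in 15% FBS, against 17 in 0.3% FBS, with a median of -0.37, and the interaction was called for 19, 15 of them toward a more negative value. Interferon-stimulated genes had 10 members lower and 3 higher in 15% FBS, and the interaction was called for 12 of 52, all toward a smaller loss or a rise. In the other classes with at least 15 called interactions, their number was 28 of 48 for other structural matrix genes (7 below 0), 20 of 46 for focal adhesion genes (16 below 0), 18 of 25 for FOXO and quiescence genes (4 below 0), 18 of 29 for TGF-beta and BMP genes (9 below 0), 15 of 30 for Wnt genes (2 below 0), 15 of 28 for proteases (3 below 0) and 48 of 356 for zinc-finger genes (10 below 0). The plot of both serum conditions shows the cell cycle and ERK classes far below the diagonal and the lipid class along it.

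**Figure D4:**
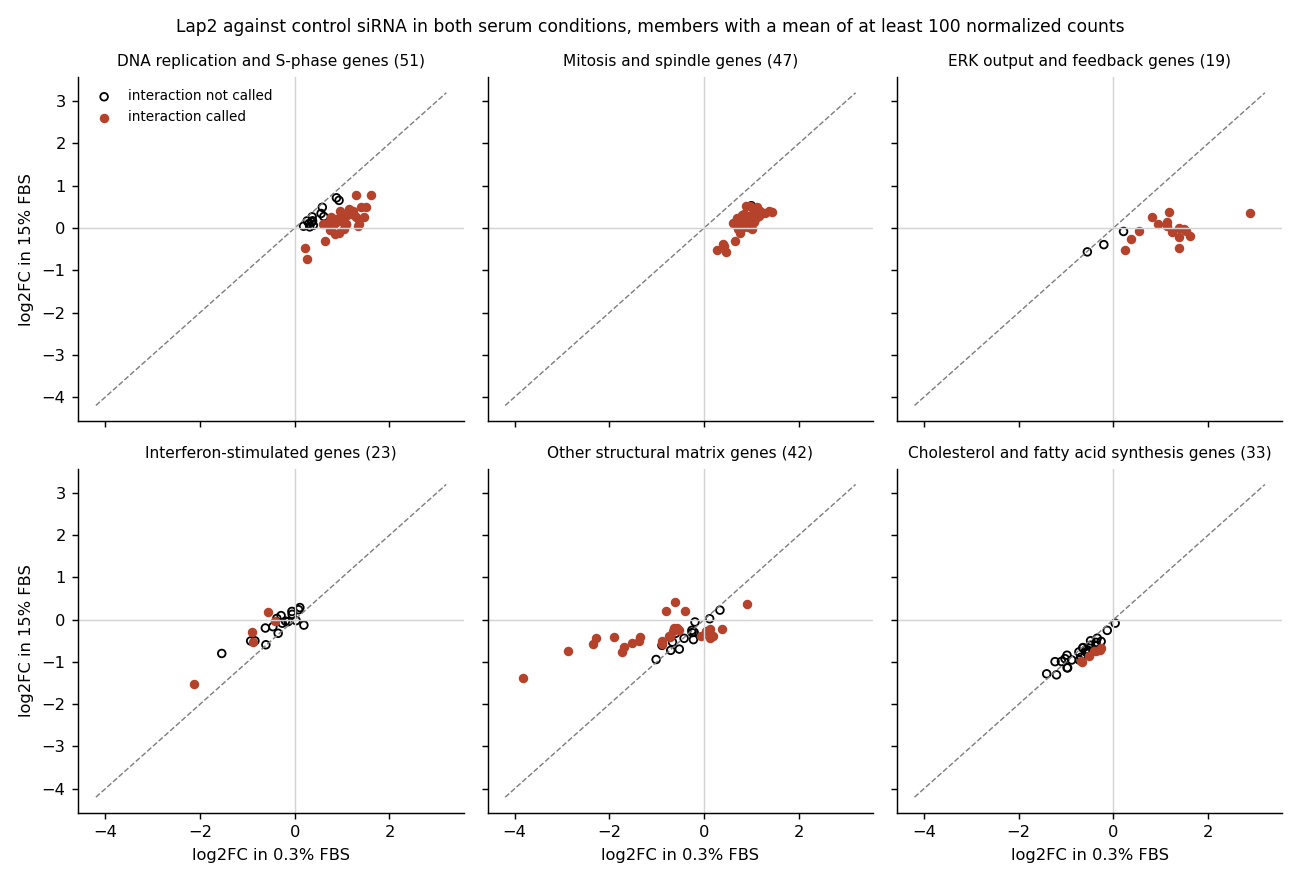
Log2FC of Lap2 siRNA over control siRNA in 0.3% FBS (horizontal axis) and in 15% FBS (vertical axis) for members of 6 gene classes that averaged 100 or more normalized counts in 0.3% FBS, whose number stands in brackets. Filled points have a called interaction, the dashed line marks equal effects, and 46 of the 47 mitosis genes are filled and lie below it while lipid synthesis genes lie near it.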

How the data were processed

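RNA was sequenced from NIH 3T3 cells as ribosomal RNA-depleted, strand-specific libraries. The authors aligned reads to mm10 with TopHat2 at default settings and counted them per gene with HTSeq, and the deposited values are these raw counts, 18026298 to 23457484 per library in 0.3% FBS. Versions, annotation and strand setting are not given in the sources used here, so reads of genes that overlap on opposite strands cannot be told apart. Among named genes this applies, for example, to Tmpo (Gm26765), Mfap4 (Mapk7), Igf2 (Igf2os), Ccne2 (Ints8), Tk1 (Afmid), Fosl1 (Ccdc85b), Gas6 (Tmem255b), Chrd (Thpo), Tead2 (Cd37), Irf7 (Phrf1), Psmb9 (Tap1), Gli1 (Arhgap9), Shmt2 (Ndufa4l2), Atf5 (Nup62), Dbp (Sphk2), Gas2 (Fancf), Syvn1 (Mrpl49), Ccnd3 (Bysl), Csf1r (Hmgxb3), Tagln (Pcsk7), Gapdh (Iffo1), Plk3 (Tctex1d4), Psmd1 (Htr2b), Gas5 (Zbtb37), Fn1 (Apol7d), Timp4 (Syn2), Tnnt3 (Prr33), mt-Nd6 (mt-Nd5) and Vcl (Ap3m1), each with the gene on the other strand in brackets. Each library listed 49671 genes, of which 49412 had the same identifier in GENCODE M21.

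Testing was limited to genes counted more than 1 time in 3 or more libraries, in one fit of 12 libraries over the 4 groups with edgeR 4.0.16 (R 4.3.3, quasi-likelihood test, TMM, Benjamini-Hochberg adjustment, threshold 0.05), so that all groups share the estimate of spread. Log2 fold changes are given with standard errors. The same fit gave the 15% FBS comparison and the interaction. On simulated counts for 18102 genes, 99.5% of 200 genes changed by a log2FC of 1 were recovered and 13 unchanged genes were called. The changed genes averaged at least 100 counts and were raised and lowered in equal number. Recovery of smaller changes, of genes with low counts and of unbalanced changes was therefore not measured. Alternatives were DESeq2 1.42.0, upper-quartile scaling, scaling to total counts, other count filters, the 6 libraries alone, the replicate number as a block, a stricter threshold and leaving out each library.

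Named genes are Tmpo, the 10 largest changes in each direction, and in each list the 2 largest changes in the leading and the 1 in the other direction, among genes called, averaging 100 or more normalized counts and with groups that do not overlap. Acta2, Tagln, Vcl, Egr1, Egr3, Fos and Gapdh were read as well, and all other genes were chosen after their values were seen. Values of a few genes are not reported here. The members and lists were chosen with earlier results of these data known. Promoter windows of 300 bases came from RefSeq (GRCm38.p6, 27025 symbols) and were searched on both strands. Python 3.11.15, pandas 2.3.3, numpy 2.4.6 and matplotlib 3.10.9 were used for summaries and plots.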

Additional observations from a re-analysis of the deposited data

Results flagged for a closer look

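For 115 of the 189 genes read by name, the effect of Lap2 siRNA in 15% FBS differed from that in 0.3% FBS in the test of the difference itself (interaction in edgeR, adjusted p from 1.7e-21 to 0.05). In 110 of them the effect moved toward a smaller one or past 0, and 12 were called in the opposite direction in 15% FBS. Of all tested genes 13.6% had a called interaction, and the named genes were chosen by their effect in 0.3% FBS. The values below are interactions, the log2FC in 15% FBS minus the log2FC in 0.3% FBS.

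The genes called in the opposite direction in 15% FBS were Ccn2 (-4.19), Ccn1 (-2.01), Dusp6 (-1.86), Ankrd1 (-1.69), Plaur (-1.43), Fhl2 (-1.24), Egr3 (-1.11), Cdk1 (-0.80), Fn1 (-0.61), Nid1 (-0.58), Gas5 (0.41) and Lox (0.60).

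Among genes with a log2FC above 0 in 0.3% FBS, the interactions were Cd300lb (-3.51), Dusp4 (-2.52), Dock8 (-2.36), Fosl1 (-1.81), Slc40a1 (-1.79), Ranbp3l (-1.70), Flt1 (-1.38), Mylk (-1.12), Id1 (-1.05), Mki67 (-1.04), Grem1 (-1.04) and Tk1 (-1.02). The next values were Mcm5 (-0.996), Pola1 (-0.96), Ttk (-0.96), Zfp367 (-0.95), Cited2 (-0.94), Il1rl1 (-0.89), Kif11 (-0.88), Spp1 (-0.87), Smad7 (-0.86), Rrp12 (-0.85), Ccne2 (-0.82) and Myc (-0.81). These were followed by Spry4 (-0.80), Ect2 (-0.78), Gas2l3 (-0.73), Bcl6 (-0.73), Pcna (-0.72), Ccnb1 (-0.71), Ddx21 (-0.70), Id2 (-0.69), Cdc6 (-0.68), Malat1 (-0.67), Plk3 (-0.66) and Tead4 (-0.61). Further values were Spred1 (-0.56), Shmt2 (-0.55), Thbs2 (-0.53), Snhg17 (-0.53), Nfil3 (-0.45), Neat1 (-0.44), Pgam1 (-0.41), Gla (-0.40), Egr1 (-0.38), Hyou1 (-0.35), Rbpj (-0.35) and Psmc2 (-0.31). Beyond these stood Fzd7 (-0.30), Psmd1 (-0.28) and Gas2 (-0.28).

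Among genes with a log2FC below 0 in 0.3% FBS, the interactions were Tmpo (-0.79), Acta2 (-0.61), Vcl (-0.55), Lmnb1 (-0.45), Zmat3 (-0.37), Atp5b (0.25), Rpl7 (0.29), Ubtf (0.31), Stat2 (0.36), Tead2 (0.44), Tef (0.45) and Gas6 (0.53). The next values were Atf5 (0.54), Jag1 (0.54), Gbp2 (0.61), Tagln (0.62), Ctsd (0.63), Adm (0.67), Slc7a5 (0.68), Pdlim2 (0.71), Fstl1 (0.71), Irf1 (0.75), Cdon (0.78) and Col3a1 (0.79). These were followed by Col5a3 (0.82), Chrd (0.88), Nfkbie (0.90), Dbp (0.95), Dcn (0.97), Eln (1.05), Psmb9 (1.07), Mmp9 (1.09), Pdgfra (1.20), Adamts1 (1.34), Boc (1.38) and Podn (1.40). Further values were Cxcl12 (1.42), Irf7 (1.48), Wnt9a (1.496), Pi16 (1.70), Krt15 (1.72), Txnip (1.74), Tnnt3 (1.77), Sfrp2 (1.94), Nbl1 (1.96), Igfbp5 (2.11), Mfap5 (2.13) and Igf2os (2.25). Beyond these stood Apod (2.29), Mfap4 (2.45), H19 (2.91) and Igf2 (3.13).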

How the results depend on the processing

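Scaling decides the balance of higher and lower genes, and the depth of these libraries leaves members under about 100 normalized counts with wide errors. With a minimum absolute log2FC of 0.6, 2872 was the number of genes changed in 0.3% FBS, 1250 higher and 1622 lower, and leaving out a library gave 5924 to 7019 changed, 3059 to 3588 higher and 2865 to 3431 lower genes. Scaling to total counts gave 3 lower endoplasmic reticulum genes, 9 lower ribosomal protein genes, 34 higher respiratory chain genes, 15 higher glycolysis genes, 7 higher clock genes and 49 lower zinc-finger genes, and turned the medians of the ATF4, TGF-beta and zinc-finger classes from -0.09, -0.02 and -0.07 to 0.02, 0.09 and 0.04. It also moved the medians of the contractile (-0.16 to -0.05), focal adhesion (-0.15 to -0.04), YAP (-0.25 to -0.14), Notch (-0.16 to -0.05), p53 (-0.13 to -0.02), endoplasmic reticulum (-0.11 to -0.01), ribosomal protein (-0.14 to -0.03), nuclear envelope (0.09 to 0.20), G1 regulator (0.11 to 0.22), lysosome (0.14 to 0.25), NF-kB (0.09 to 0.20), respiratory chain (0.08 to 0.19), mitochondrially encoded (0.10 to 0.21), glycolysis (0.08 to 0.19) and clock (0.12 to 0.23) classes by over 1.5 times. Over all alternatives 75 class medians moved by more than the spread between libraries and 401 did not. The lower ribosomal protein genes were 35 without a filter and 13 with the 6 libraries alone, which also gave 7 higher respiratory chain genes. With a library left out, lower ribosomal protein genes numbered 9 (without Lap2 siRNA replicate 2) to 72 (without Lap2 siRNA replicate 1), with 13, 10 and 10 without control siRNA replicates 1 and 3 and Lap2 siRNA replicate 3. Higher respiratory chain genes numbered 7 (without Lap2 siRNA replicate 1) to 26 (without Lap2 siRNA replicate 3), with 8 without control siRNA replicate 2 and 24 without Lap2 siRNA replicate 2. Higher mitochondrially encoded genes numbered 1 (without Lap2 siRNA replicate 1) to 4 (without control siRNA replicate 3), and lower Notch genes 2 (without control siRNA replicate 1) to 4. The cause of these shifts was not tested. In each class only the count in its leading direction was followed, and the other 455 of these counts over all alternatives stayed within 1.5 times, no named gene changed direction, and 76 of the values of single named genes fell short of the threshold while 4 passed it. Calls close to the threshold in the main edgeR fit included Dnajb9, Lef1, Dll1 and Rpl13a (adjusted p = 0.0482, 0.0478, 0.0454 and 0.0432).

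The replicate number as a block gave 3281 higher and 3475 lower genes and moved none of the counts in the leading direction of a class by over 1.5 times. Deviations of control and Lap2 siRNA libraries with the same number correlated at 0.099, 0.097 and -0.089 across 10449 genes, and not every library correlated best with its own number, so the numbers were not taken as pairs.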
